A study of Mus musculus with 87 samples.

Results

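The livers of mice killed 1 week after partial hepatectomy (PH, group X1W, 3 livers) were compared with those killed 72 h after it (group X72, 3 livers). The paper describes a return to the resting state of expression by 1 week, but places full regrowth of the liver mass later than that. These 6 libraries were chosen by their labels alone, out of 80 livers analysed here and 87 labelled samples. All were male C57BL/6 mice, aged 12 to 14 weeks at the time of surgery per the study's methods. Mice killed later after PH were thus older at collection. They were kept on a light and dark cycle with food only in the dark before surgery. Most of the liver mass was removed under anaesthesia early in the light period. The controls that served as a base line for levels were 9 resting livers taken at 0 h from mice without surgery (C0), and 2 livers of mice killed 4 weeks after PH (X4W) are given beside them in the plots. The work was done in 3 separate periods. The X72 and X1W livers all belong to the first of these, the C0 livers to all of them, 3 to each, and the X4W livers to another period than X72 and X1W. The labels do not say which C0 livers share the period of X72 and X1W, so counts against C0 are also given with C0 replicates 1 to 3, 4 to 6 or 7 to 9 as the only controls, an alternative chosen after seeing the data. The mice of a time point were operated on and killed together, so the time after PH and the cohort cannot be told apart, and no hour of day was found for the 1-week collection. The scheme of the experiment draws both collections in the light period, with food withheld at 72 h and provided around 1 week, so feeding and time after PH cannot be told apart either. Each library is 1 liver of 1 mouse. P-values are held against the spread between livers within all 19 groups analysed, not within X72 and X1W alone. Those groups include livers after sham surgery and livers of unoperated mice at the 4 h and 4-week time points.

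After PH the remaining hepatocytes, which rarely divide in the adult, leave quiescence, replicate their DNA, divide and later return to rest. Meanwhile they go on making plasma proteins, bile and glucose. Entry into S phase relies on E2F transcription factors, which act on genes of DNA replication, and the later genes of mitosis are held down at rest by the DREAM complex and activated by B-Myb and FoxM1 through a short promoter element, the cell-cycle gene homology region. The liver of male rodents also has its own set of transcripts, kept by the pulses of pituitary growth hormone through Stat5b.

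The values are RPKM (reads of a gene scaled to its exon length and to all mapped reads of the library), given below as such for levels. Fold changes are differences of mean log2(RPKM + 0.25), 1 week minus 72 h, so that a positive value means a higher level at 1 week, with the standard error (SE) of the model. Adding 0.25 understates the change of genes at low levels. A gene is called at an adjusted p (limma, Benjamini-Hochberg over all tested genes) below 0.05 and a log2 fold change beyond 0.5. The 3 values given for a group are those of its replicates 1, 2 and 3, and the values of the groups do not overlap unless the text says so. Over all tested genes, 28.4% were lower in each X1W liver than in each X72 liver, and 10.1% were higher. The depth of the X72 libraries was estimated at 24.5 to 33.0 M reads and that of the X1W libraries at 20.5 to 28.1 M reads. Levels of the detected genes correlated at 0.982 to 0.988 between X72 livers, at 0.984 to 0.989 between X1W livers, and at 0.956 to 0.977 between the groups. X72 replicate 1 stood somewhat apart from the other 2 X72 livers, at 0.982 and 0.983, against 0.988 between those, and results that depend on it are given with and without it. Albumin (Alb), the main plasma protein of hepatocytes, had RPKM values of 38225, 38796 and 48176 at 72 h and 42605, 35952 and 37583 at 1 week, which overlapped. In whole liver, fewer cells of a type and less RNA per cell cannot be told apart.

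Between 72 h and 1 week the cell-division, ribosome and acute-phase transcripts came down and transcripts of the mature male liver came up. Of 15396 genes tested, 2507 were called (16.3%), 1873 of them lower at 1 week (12.2%) and 634 higher (4.12%). These shares over all tested genes are the background of the list counts below that use the deposited values, all livers and all 19 groups. With the libraries scaled, 6.56% were called lower and 6.81% higher. List counts from another fit are to be held against the number of genes called in that fit. The imbalance between falls and rises depended on the scaling of the libraries. The median log2 fold change of all tested genes was −0.11, and with each library scaled to the same median it was 0.00205, with 1010 genes called lower and 1048 higher. The share of called genes that were higher at 1 week thus moved from 25.3% to 50.9%. All 1010 genes called lower on the scaled values were also called lower on the deposited ones, and 631 of the 634 genes called higher were called higher on both. No called gene named below changed its direction between the scales. Calls and list counts that depend on the scaling or on 1 liver are stated at the end of the paragraph they belong to, with the log2 fold change or its range under those settings in brackets, and counts of 3 or fewer members are to be read only through the genes named. Fitting the 6 livers alone leaves every fold change as it is and changes only the spread it is held against, and 1060 genes were then called lower and 253 higher, and 51 of the 156 genes named here lost their call. Genes and list counts that depend on this choice are given in the same place. Without X72 replicate 1, 1356 genes were lower and 321 higher, so the number of rises depended by more than 1.5 times on that liver.

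**Figure D1:**
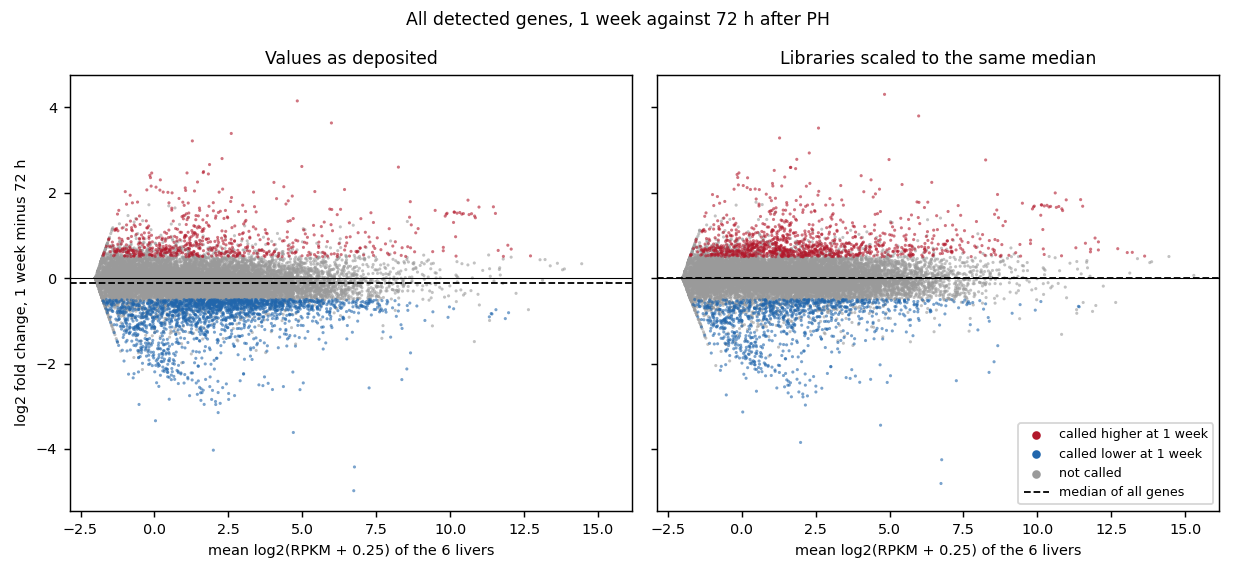
All 15396 detected genes, with the mean log2(RPKM + 0.25) of the 6 livers on the x axis and the log2 fold change between 1 week and 72 h on the y axis, as deposited (left) and with each library scaled to the same median (right). Red points are genes called higher at 1 week, blue points genes called lower and grey points genes not called. On the left the blue points outnumber the red (1873 against 634), and on the right they are about as many (1010 against 1048).

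Most of the genes called lower at 1 week had been above their resting range at 72 h. Of these 1873 genes, 1523 (81.3%) had a 72 h mean above the highest of the 9 C0 livers, and at 1 week 645 (34.4%) were still above it, 889 (47.5%) were within the range and 339 (18.1%) were below the lowest C0 liver. Among all tested genes, 40.1% were above the range at 72 h and 26.9% at 1 week. Of the 634 genes called higher at 1 week, 453 (71.5%) had been below the resting range at 72 h, and at 1 week 398 (62.8%) were within it, 100 (15.8%) were below and 136 (21.5%) above. Among all genes 10.4% were below the range at 72 h and 10.1% at 1 week. These shares describe positions against 9 livers on the deposited values only and are no test. Genes called lower were chosen for their higher 72 h values, and genes called higher for their lower ones. Part of their place against C0 at 72 h thus follows from that choice. Against C0 itself, 26.6% of the tested genes were called higher and 6.59% lower at 72 h, and 12.4% were called higher and 4.48% lower at 1 week. These shares are the background of the list counts against C0 below that use the deposited values and all 9 C0 livers. Counts under the other settings are to be held against the totals that follow. With the libraries scaled, 1760 were called higher and 2553 lower at 72 h, and 863 higher and 1537 lower at 1 week. With C0 replicates 1 to 3, 4 to 6 and 7 to 9 as the only controls, 3656, 3596 and 5011 genes were called higher and 856, 1105 and 1605 lower at 72 h. At 1 week these counts were 1364, 1658 and 3395 higher and 651, 748 and 1295 lower. The comparisons with C0 share the X72 or the X1W livers with the main one, so they are given as values only.

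**Figure D2:**
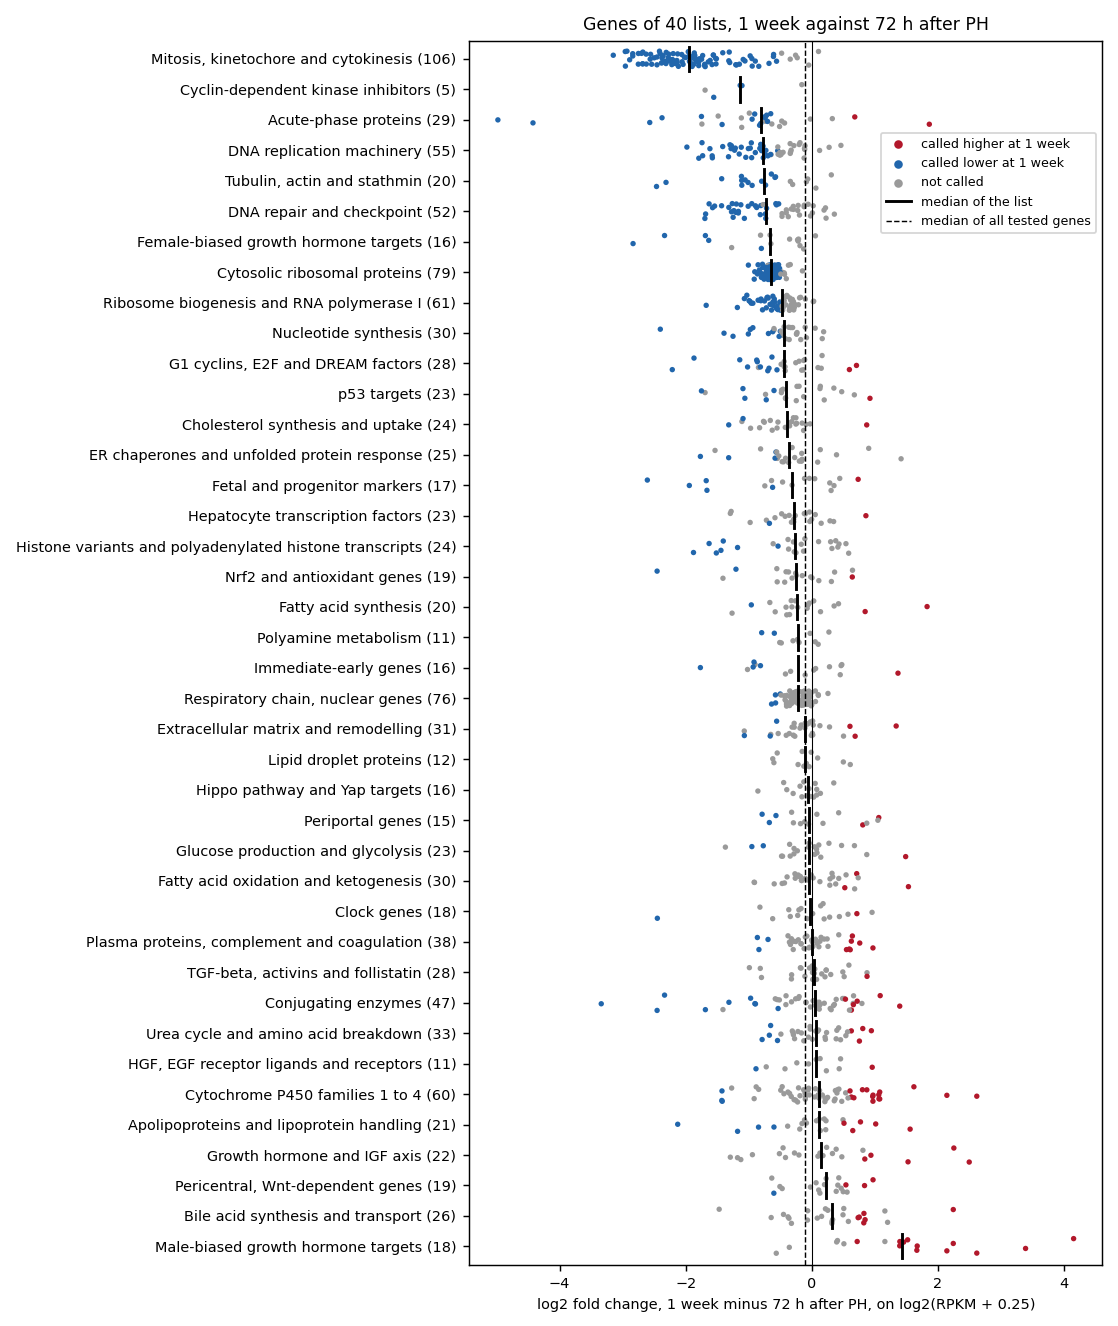
Log2 fold change between 1 week and 72 h for the detected genes of each of 40 lists (number of genes in brackets), sorted by the median of the list. Points are genes (red, called higher at 1 week, blue, called lower, grey, not called), thick bars mark the median of each list and the dashed line the median of all tested genes. The mitosis list lies lowest, with a median of −1.95, and the male-biased growth hormone targets lie highest, with a median of 1.43.

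The genes of mitosis fell furthest as a group. Of the 110 listed genes, which build the spindle, the kinetochore and the cleavage furrow or drive and check mitosis, 107 were found in the table and 106 were detected. Of these, 100 (94.3%, against 12.2% of all tested genes) were lower at 1 week, 0 were higher and 6 were not called. The median log2 fold change was −1.95, beside −0.11 over all genes. Without X72 replicate 1, 99 members were lower, and 97 on the scaled values. The fall began from a high level, with 101 members called above C0 at 72 h with a median log2 difference of 2.98. At 1 week 79 members (72 to 81 with 3 C0 livers at a time) were called above C0, with a median of 1.06, and 96 of the 106 had a mean above the highest C0 liver.

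Cdk1 (chr10:68799383-68815686, mm9), the kinase that drives entry into mitosis, had RPKM values of 11.2, 17.4 and 17.3 in the X72 livers and 2.28, 1.25 and 2.29 in the X1W livers. The groups did not overlap, the log2 fold change was −2.84 ± 0.31 (adjusted p = 6.08e-11), and the C0 livers ranged from 0.176 to 0.941 (median 0.287), so the 1-week livers all lay above every resting one. Mki67 (chr7:142881471-142908062, mm9) encodes Ki-67, the common marker of dividing cells, and had 8.89, 12.7 and 11.9 at 72 h and 1.77, 0.822 and 2.26 at 1 week. Its log2 fold change was −2.68 ± 0.32 (adjusted p = 1.08e-09). In these genes and the next 3, X1W replicate 2 was the lowest of the 1-week livers, and all X1W livers lay above every C0 liver. Ccnb1, the cyclin partner of Cdk1, had 4.67, 13.5 and 10.3 and then 0.939, 0.494 and 1.47, and Plk1, a kinase of spindle assembly and mitotic exit, had 7.3, 15.2 and 12.4 and then 1.48, 0.816 and 1.72. Top2a, which untangles sister DNA, went from 8.56, 8.22 and 8.96 to 1.29, 0.736 and 2.04. These last 3 had log2 fold changes of −2.96, −2.89 and −2.54. The largest fall of the list was that of Ube2c, the ubiquitin-conjugating enzyme of the anaphase-promoting complex, at −3.15 ± 0.35. Aurka, the centrosomal Aurora kinase, fell by 2.96 on the log2 scale and Pbk, a mitotic kinase, by 2.93. Ccna2, Bub1 and Birc5, which encode cyclin A2, a checkpoint kinase and survivin, fell by 2.56, 1.95 and 2.69. Tubulin and stathmin genes, which supply and destabilise microtubules, were lower as well. In the list of 20 detected tubulin, actin and stathmin genes 14 were lower and 0 higher (median −0.77). Tubb6 had 30.8, 34.8 and 35 and then 6.94, 4.58 and 6.35, and Stmn1 had 24.2, 32.2 and 31.7 and then 6.68, 4.2 and 6.47. Of the tubulin and actin genes 9 were lower without X72 replicate 1 or X1W replicate 2 and 7 lower with the libraries scaled. Of the tubulin, actin and stathmin genes 9 were lower with the 6 livers fitted alone.

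The promoters of these genes shared letters that the choice of samples did not use. In the RefSeq promoters (GRCm38.p6, 250 bases before to 50 bases after the start, any promoter of a gene counted), the core of the cell-cycle gene homology region, TTTGAA on either strand, was found for 56 of 87 (64.4%) of the mitosis list with a promoter in the table. It was found for 5466 of 27025 (20.2%) of all genes with a promoter there and 1382 of 9206 (15%) of the detected genes. Of the genes called lower at 1 week 202 of 1120 (18%) held it, and of those called higher 85 of 408 (20.8%). The CCAAT box, CCAAT on either strand, which can share 1 end base with TTTGAA, was found for 60 of 87 (69%) of the mitosis list, 27 of 45 (60.0%) of the replication list described below, 3973 of 9206 (43.2%) of the detected genes and 11096 of 27025 (41.1%) of all. The box was found for 521 of 1120 (46.5%) of the genes called lower at 1 week and 197 of 408 (48.3%) of those called higher. Matches to short letters are a description and not binding sites. The promoters of 3 key mitosis genes are shown, picked for a match between 200 bases before and 20 bases after the start. The size of their fall played no part in this choice. The capitals mark TTTGAA or its reverse complement, which occurs in the same 220 bases of 15.3% of all genes. Cdk1 lies at chr10:69352893-69353112, minus strand, Top2a at chr11:99024170-99024389, minus strand, and Mki67 at chr7:135716360-135716579, minus strand, all in GRCm38.p6 and written 5′ to 3′.
Cdk1: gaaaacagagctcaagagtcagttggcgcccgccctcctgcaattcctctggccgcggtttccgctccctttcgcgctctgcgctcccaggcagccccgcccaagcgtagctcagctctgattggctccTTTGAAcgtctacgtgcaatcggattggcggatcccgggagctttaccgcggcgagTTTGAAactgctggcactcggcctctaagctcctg
Top2a: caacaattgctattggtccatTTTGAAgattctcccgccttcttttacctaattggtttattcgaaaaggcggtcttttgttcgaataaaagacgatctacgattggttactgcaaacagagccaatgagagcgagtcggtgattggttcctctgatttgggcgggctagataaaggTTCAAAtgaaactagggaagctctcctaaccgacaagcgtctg
Mki67: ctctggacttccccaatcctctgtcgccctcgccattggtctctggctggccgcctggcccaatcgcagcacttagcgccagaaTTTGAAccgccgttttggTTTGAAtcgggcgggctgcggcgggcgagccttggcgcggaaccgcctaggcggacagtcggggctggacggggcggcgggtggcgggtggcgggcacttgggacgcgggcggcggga

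Each of the 3 holds the letters more than once. In Cdk1 the matches begin 71 and 15 bases before the start, in Mki67 116 and 98 bases before it, both in the sense direction, and in Top2a 179 bases before it in the sense and 23 bases before it in the antisense direction. Ccnb1, Plk1, Bub1 and Birc5 had no match in these 220 bases, and Ccna2 had no promoter in the table.

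**Figure D3:**
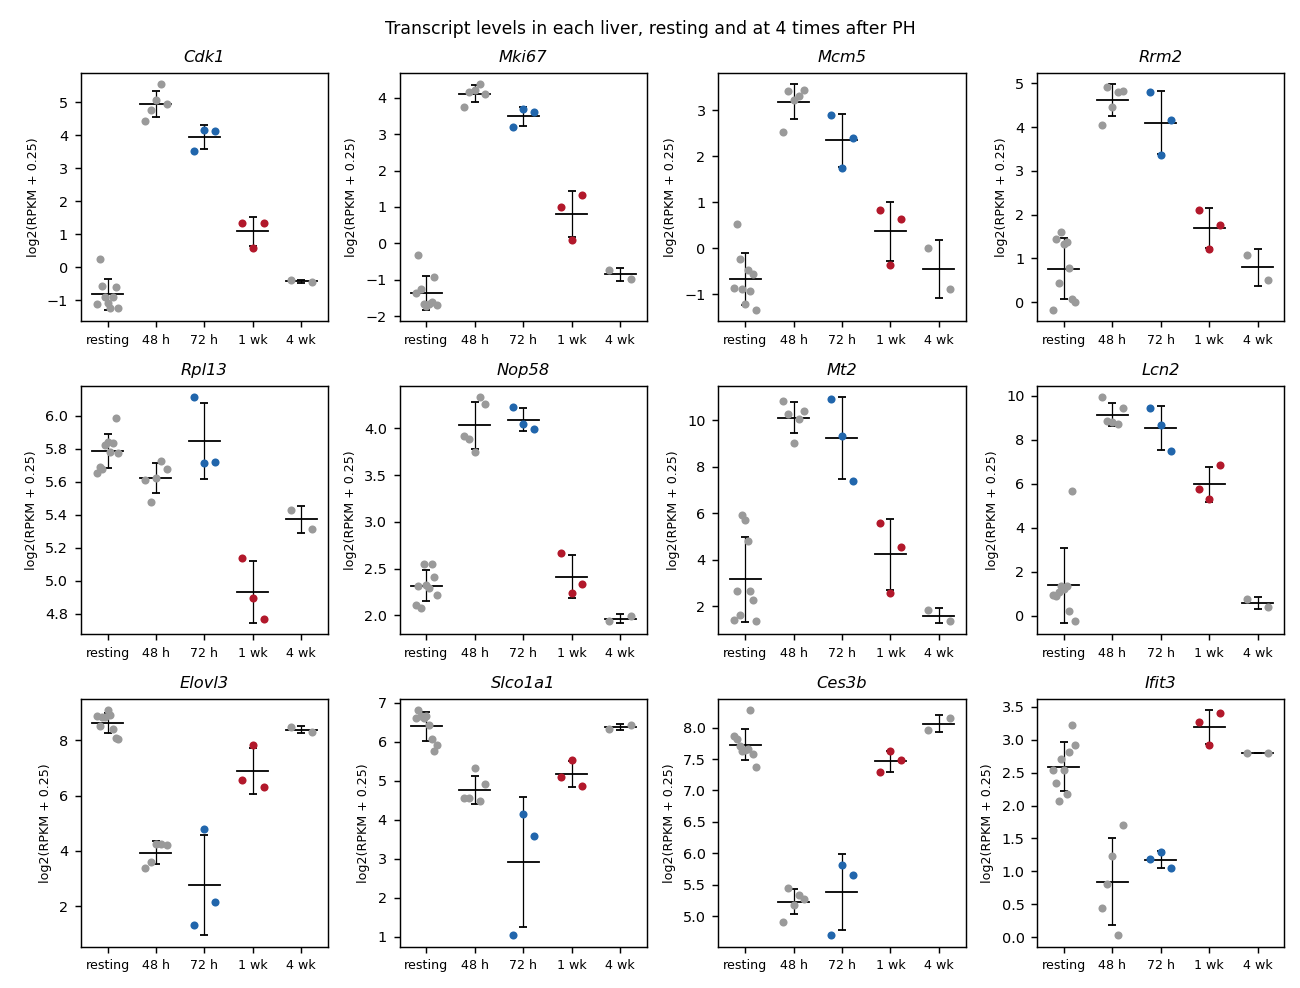
Levels of 12 genes in each liver as log2(RPKM + 0.25), in resting livers (C0, 9 livers) and at 48 h (5), 72 h (blue, 3), 1 week (red, 3) and 4 weeks (2) after PH. Each point is 1 liver, horizontal lines are group means and error bars 1 SD. The y axes differ between genes. The blue and the red points do not overlap in any of the 12 panels, and for Cdk1 and Mki67 all red points lie above every resting liver.

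Genes of S phase came down less far, from a lower start. The median of the replication list was 1.10 above C0 at 72 h and 0.27 at 1 week, beside 2.98 and 1.06 for the mitosis list. Of 55 detected genes of the replication machinery, 33 were lower at 1 week and 0 higher, with a median of −0.77 (25 lower without X72 replicate 1, 30 when scaled). Against C0, 43 were called higher at 72 h and 12 at 1 week (35 and 9 when scaled). The count at 1 week was 3 with C0 replicates 1 to 3, 12 with 4 to 6 and 16 with 7 to 9. Mcm5 (chr8:77633427-77652338, mm9), a subunit of the replicative helicase, had RPKM values of 7.22, 3.12 and 4.99 at 72 h and 1.54, 0.525 and 1.29 at 1 week. Its log2 fold change of −1.98 ± 0.43 (adjusted p = 0.000404) was the largest of the list, and the 1-week livers spread across the upper part of the C0 range of 0.147 to 1.19 (median 0.302) and beyond it. Mcm2, of the same helicase, fell by 1.30, Asf1b and Chaf1a, which lay down histones on new DNA, by 1.79 and 1.74, and Dbf4, which activates the Cdc7 kinase at origins, by 1.73. Pcna, the sliding clamp of the polymerases, came down to about its resting level. It had 18.6, 9.91 and 13.2 and then 7.7, 6.43 and 8.46, a fold change of −0.83 ± 0.21, while C0 ranged from 6.74 to 8.05 (median 7.49). Pcna was not called without X72 replicate 1 (−0.60). Mcm5, Mcm2 and Pcna lost their call with the 6 livers fitted alone (limma, adjusted p = 0.0526 to 0.0909). Of the replication genes 19 were lower in that fit.

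The E2F site TTCCCGC, on either strand, which cannot overlap TTTGAA, was found in the promoters of 19 of 45 (42.2%) of the replication list and 17 of 42 (40.5%) of the DNA repair list, against 5 of 28 (17.9%) of the nucleotide synthesis list and 11 of 87 (12.6%) of the mitosis list. It was found for 154 of 1120 (13.8%) of the genes called lower at 1 week and 28 of 408 (6.86%) of those called higher. The shares were 874 of 9206 (9.49%) for the detected genes and 1429 of 27025 (5.29%) for all genes. The cell-cycle gene homology region was found for 9 of 45 (20.0%) of the replication list, about its share over all genes. Of the key replication and nucleotide synthesis genes, Cdc6, which loads the helicase at origins, held the E2F letters between 200 bases before and 20 bases after its start, as do 4.16% of all genes in that window. The other 6 key genes of these lists, Mcm2, Mcm5, Pcna, Tyms, Tk1 and Rrm2, had no match there. Cdc6 is shown for contrast with the mitosis promoters, at chr11:98907951-98908170, plus strand in GRCm38.p6, with the match (antisense, 138 bases before the start) in capitals.
Cdc6: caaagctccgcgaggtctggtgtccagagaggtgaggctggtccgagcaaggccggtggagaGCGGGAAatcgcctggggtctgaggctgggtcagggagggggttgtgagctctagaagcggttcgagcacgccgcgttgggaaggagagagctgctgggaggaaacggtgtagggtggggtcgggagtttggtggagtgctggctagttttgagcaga

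Cdc6 itself was low, with RPKM values of 0.397, 0.226 and 0.449 at 72 h and 0.0947, 0.0673 and 0.121 at 1 week, and fell by 0.80 on the log2 scale (SE 0.25). In the DNA repair and checkpoint list, 30 of 52 detected genes were lower and 0 higher (median −0.73). Brca1, which acts in the repair of DNA breaks, fell by 1.17 and the checkpoint kinase gene Chek1 by 1.32. In nucleotide synthesis 10 of 30 were lower and 0 higher (median −0.45). Rrm2 (chr12:25393106-25399011, mm9), the subunit of ribonucleotide reductase that is made in S phase, had 27.5, 9.95 and 17.5 at 72 h and 4.07, 2.06 and 3.16 at 1 week, a log2 fold change of −2.40 ± 0.45 (adjusted p = 4.53e-05). Tyms, thymidylate synthase, fell by 1.25. Tk1, thymidine kinase, was not called, with a fold change of −0.60 ± 0.27 (limma, adjusted p = 0.0966). Its livers did not overlap, but 28.4% of all tested genes were likewise lower without overlap. Cdc6 was not called without X72 replicate 1, X72 replicate 3 or X1W replicate 2 (−0.69 to −0.75). Of the nucleotide synthesis genes 6 were lower without X72 replicate 1 and with the libraries scaled. Tk1 was called with the 6 livers fitted alone (limma, adjusted p = 0.0453).

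The regulators of these programmes moved unevenly. Among 28 G1 cyclins, E2F factors and members of DREAM, 11 were lower (39.3%, against 12.2% of all genes) and 2 higher (7.14%, against 4.12%). Their median was −0.44. Foxm1, the activator of mitotic genes, had RPKM values of 3, 3.82 and 3.81 at 72 h and 0.605, 0.355 and 0.788 at 1 week, and its log2 fold change of −2.21 ± 0.21 was the largest of the list. All 3 X1W livers were above the C0 range of 0.00853 to 0.208 (median 0.0498). Ccne1, the cyclin of S-phase entry, had 2.67, 1.13 and 1.39 and then 0.266, 0.22 and 0.311 (log2 fold change −1.87 ± 0.28). E2f1 and E2f8, an activating and a repressing E2F, fell by 0.87 and 1.02, and Rbl1, the pocket protein p107, by 1.14. Ccnd1, cyclin D1, which couples growth factors to the cell cycle, was not called between 72 h and 1 week. Its values were 31.2, 16.3 and 39.2 at 72 h and 14.6, 12.1 and 19 at 1 week, the groups overlapped and the fold change was −0.85 ± 0.42 (adjusted p = 0.142). Every one of these 6 livers was above the C0 range of 1.72 to 6.9 (median 3.56), and at 1 week Ccnd1 stood 2.11 log2 units above C0 (adjusted p = 2.83e-06). E2f8 was not called without X72 replicate 3 or X1W replicate 2 and with the libraries scaled (−0.67 to −0.86), and E2f1 without X72 replicate 1 (−0.74). Ccnd1 was called without X72 replicate 2 (−1.21). Of the G1 and E2F factors 7 were lower without X72 replicate 3 or X1W replicate 2 and 6 lower with the libraries scaled. E2f8 lost its call with the 6 livers fitted alone (limma, adjusted p = 0.128). Of the G1 and E2F factors 6 were lower in that fit.

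Of 5 detected inhibitors of cyclin-dependent kinases, 3 were lower at 1 week and 0 higher. These were Cdkn1c, with 0.77, 2.25 and 3.67 and then 0.366, 0.384 and 0.757, Cdkn2c (p18), with 5.91, 8.89 and 8.31 and then 3.55, 3.02 and 3.39, and Cdkn2d (p19), with a log2 fold change of −1.11 ± 0.24. Cdkn1a (p21), the inhibitor induced by p53, had 37.1, 11.4 and 16.8 at 72 h and 7.03, 5.36 and 5.13 at 1 week. The groups did not overlap, as in the 28.4% of all tested genes that were lower without overlap. The test, whose SE comes from all 19 groups, did not call the difference (limma, −1.69 ± 0.76, adjusted p = 0.0971). In the p53 target list 5 of 23 were lower (21.7%, against 12.2% of all genes) and 1 higher (4.35%, against 4.12%). Gadd45b, a stress-induced regulator of kinases, fell by 1.75, and Bbc3, which encodes the death-promoting Puma, had 1.89, 2.98 and 2.24 and then 6.18, 4.9 and 3.27, a rise of 0.92 ± 0.33. Among 24 histone variants and polyadenylated histone transcripts, 7 were lower (29.2%, against 12.2% of all genes) and 0 higher. H2afz, the variant H2A.Z, had 51.3, 57.5 and 57.3 at 72 h and 22.4, 18.7 and 21.3 at 1 week, where C0 had 16.5 to 22.9 (median 20.6). Cenpa, the histone of centromeres, fell by 1.88, and H2afx, the variant that marks broken DNA, by 1.63. Bbc3 was not called without X72 replicate 1, X72 replicate 3, X1W replicate 1 or X1W replicate 2 (0.72 to 0.89). Of the p53 targets 3 were lower without X72 replicate 1 or X1W replicate 2. Cdkn1c and Bbc3 lost their call with the 6 livers fitted alone (limma, adjusted p = 0.0891 to 0.121). Of the p53 targets 2 were lower in that fit.

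**Figure D4:**
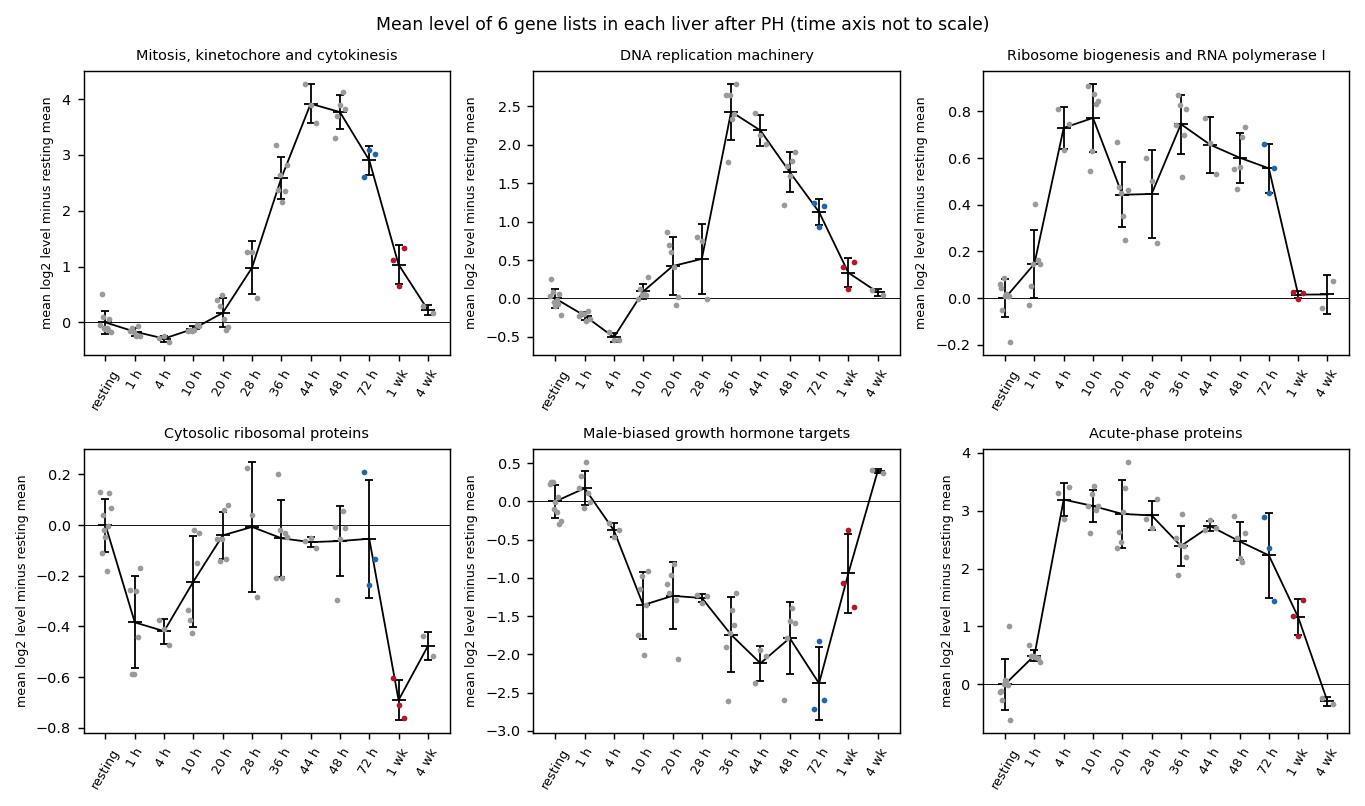
Mean level of 6 gene lists in each liver after PH. Each list is the mean of log2(RPKM + 0.25) over its detected genes, minus the mean of the resting livers. Points are livers (blue, 72 h, red, 1 week), lines join group means, error bars are 1 SD, and the time axis is not to scale. The mitosis list stands at 2.91 at 72 h and 1.04 at 1 week, and the ribosomal protein list at −0.05 and −0.69.

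Ribosome genes formed 2 lists of different course. The list of ribosome biogenesis and RNA polymerase I had 29 of 61 detected genes lower at 1 week and 0 higher (median −0.47; 25 lower without X72 replicate 1, 18 when scaled). Against C0, 33 of its members were called higher at 72 h (11 when scaled) and 0 at 1 week, where 2 were called lower (10 when scaled). With C0 replicates 7 to 9 alone 8 were higher at 1 week. The mean over its genes was 0.56 ± 0.11 (log2, SD, n = 3) above the resting mean at 72 h and 0.01 ± 0.02 from it at 1 week, and 41 of the 61 genes were within the C0 range at 1 week. Nop58, a core protein of the particles that methylate ribosomal RNA, had RPKM values of 18.5, 16.3 and 15.7 at 72 h and 6.12, 4.47 and 4.8 at 1 week, and C0 livers 3.99 to 5.6 (median 4.73). Its log2 fold change of −1.68 ± 0.23 (adjusted p = 7.74e-08) was the largest of the list, and its partner Nop56 fell by 1.00. Ncl, nucleolin, was not called, at −0.35 ± 0.11.

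The genes of the ribosomal proteins themselves were below the resting level at 1 week. Of 79 cytosolic ribosomal protein genes, 69 were lower at 1 week than at 72 h and 0 higher, with a narrow spread of log2 fold changes from −1.01 to −0.15 (median −0.64). Against C0, 0 were called higher and 1 lower at 72 h, while at 1 week 67 were called lower (58 to 68 with 3 C0 livers at a time). At 72 h 8 were lower with C0 replicates 7 to 9 alone. With the libraries scaled these counts of lower genes were 33 at 72 h and 78 at 1 week. On the deposited scale 78 of the 79 had a mean below the lowest C0 liver. Rpl13 had RPKM values of 68.9, 52.2 and 52.4 at 72 h and 34.9, 29.6 and 27 at 1 week, against 50.1 to 63 (median 54.7) in C0. The 1-week livers were thus below each of the 12 others. Rpl41 had 178, 157 and 162 and then 94, 80.9 and 73.4, and Rpl3 262, 187 and 210.0 and then 120.4, 110.1 and 129. Rplp0, a protein of the ribosomal stalk, was not called, at −0.43 ± 0.10, and was called without X72 replicate 3 (−0.51). The number of members called lower was 39 without X72 replicate 1, which had the highest values of the 3 X72 livers in Rpl13, Rpl41 and Rpl3, and 30 when the libraries were scaled. The mean over the list at 4 weeks, in 2 livers, was −0.48 ± 0.05 (log2, SD) from the mean of C0. The 2 livers of unoperated mice taken at 4 weeks (C4W), from the same period as X4W, stood at −0.41 ± 0.01, so at 4 weeks the list was below C0 without PH as well. Ribosomal protein genes have many near-identical pseudogenes with which they may share reads. Of the ribosomal protein genes 38 were lower with the 6 livers fitted alone.

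Nuclear genes of the respiratory chain had few calls, with 4 of 76 lower (5.26%, against 12.2% of all genes) and 0 higher (median −0.21). Against C0, 10 of them were called lower at 72 h (46 when scaled) and 32 at 1 week (55 when scaled). With 3 C0 livers at a time these counts were 4 to 16 and 18 to 36. Ndufa8, of complex I, had 115, 82.6 and 92.4 at 72 h and 65.7, 58.5 and 60.2 at 1 week. Among 25 chaperones and factors of the unfolded protein response, 4 were lower (16%, against 12.2% of all genes) and 0 higher. Atf3 and Ddit3, transcription factors of stress, fell by 1.77 and 1.32. Hspa5, the main chaperone of the endoplasmic reticulum, had 413, 579.6 and 521 and then 282, 831 and 381, with overlap and no call. Of 11 polyamine genes, 2 were lower, Odc1 and Amd1, the rate-limiting enzymes of polyamine synthesis, at −0.60 ± 0.22 and −0.80 ± 0.23. Ndufa8 was not called with the libraries scaled (−0.47), Odc1 without X72 replicate 1, X72 replicate 3, X1W replicate 1 or X1W replicate 3 and with the libraries scaled (−0.43 to −0.54), and Atf3 without X72 replicate 1 or X1W replicate 2 (−1.39 to −1.47). Of the respiratory chain genes 1 was lower without X72 replicate 1, 8 lower without X72 replicate 2, 2 lower without X1W replicate 2 and 0 lower with the libraries scaled, and of the chaperones 1 was lower without X72 replicate 1 and 2 lower with the libraries scaled. Atf3, Ddit3 and Odc1 lost their call with the 6 livers fitted alone (limma, adjusted p = 0.0943 to 0.101). Of the respiratory chain genes 2 were lower, and of the chaperones 0 were lower in that fit.

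Acute-phase transcripts came down, with large differences between livers of the same time. Of 29 genes, 15 were lower at 1 week and 2 higher, with a median of −0.81. Against C0, 23 were called higher at 72 h and 15 at 1 week (13 to 16 with 3 C0 livers at a time). With the libraries scaled these counts were 22 and 11. Among called genes above an RPKM of 1 in either group, the largest falls were those of the metallothioneins, small proteins that bind zinc and are induced by metals, glucocorticoids and inflammation. Mt2 (chr8:96696518-96697467, mm9) had RPKM values of 1950.2, 652 and 169 in the 3 X72 livers and 47.9, 5.76 and 23.5 in the X1W livers, and its neighbour Mt1 (chr8:96702989-96704225, mm9) had 1424, 532 and 168 and then 45.6, 9.18 and 29.6. The 72 h livers thus differed by an order of magnitude among themselves, yet each stayed above all 1-week livers. The log2 fold changes were −4.98 ± 0.86 (adjusted p = 1.11e-05) and −4.42 ± 0.73 (adjusted p = 4.44e-06). At 1 week the values of Mt2 were within the C0 range of 2.35 to 61.6 (median 6). Of the acute-phase genes 5 were lower without X72 replicate 1 and 7 lower with the libraries scaled. Mt2 and Mt1 lost their call with the 6 livers fitted alone (limma, adjusted p = 0.0523 to 0.059). Of the 29 acute-phase genes 2 were lower in that fit, where 1060 of all 15396 genes were.

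The metallothionein promoters are shown because both genes carried the largest falls and moved together liver by liver. The capitals mark the core of the metal response element, TGCACNC or TGCGCNC on either strand. At least 1 such match was found in the same 220 bases for 22.4% of all genes, at least 2, as in Mt1, for 5.51%, and at least 3, as in Mt2, for 1.35%. The last marked match of each gene lies after the RefSeq start. The stretches lie at chr8:94178889-94179108, plus strand (Mt1), and chr8:94172418-94172637, plus strand (Mt2), of GRCm38.p6, and run from 200 bases before to 20 bases after the RefSeq start, 5′ to 3′.
Mt1: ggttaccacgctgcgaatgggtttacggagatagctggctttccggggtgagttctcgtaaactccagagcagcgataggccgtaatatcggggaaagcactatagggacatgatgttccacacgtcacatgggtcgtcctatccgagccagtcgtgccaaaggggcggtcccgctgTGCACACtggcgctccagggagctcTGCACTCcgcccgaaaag
Mt2: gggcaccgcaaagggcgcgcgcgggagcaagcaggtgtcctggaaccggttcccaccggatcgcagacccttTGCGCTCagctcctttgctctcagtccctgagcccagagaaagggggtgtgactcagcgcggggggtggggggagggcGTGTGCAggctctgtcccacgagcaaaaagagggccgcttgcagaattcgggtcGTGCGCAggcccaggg

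Lcn2 (chr2:32240153-32243317, mm9), lipocalin 2, which starves bacteria of iron, had RPKM values of 709, 411 and 178 at 72 h and 53.3, 39.3 and 116 at 1 week. The groups did not overlap, and the log2 fold change was −2.57 ± 0.72 (adjusted p = 0.00569). Its mean at 1 week was still 4.60 log2 units above that of C0. Apcs, serum amyloid P, had 1284, 705 and 468 and then 175, 91.1 and 189, and fell by 2.38 ± 0.35. Orm1, an acid glycoprotein of plasma, had 5407, 3476 and 2299 and then 1725, 1534 and 2479, with overlap, and fell by 0.91 ± 0.28. Saa1, serum amyloid A, was not called. Its RPKM values of 8292, 5881 and 983 at 72 h and 1410.0, 1651 and 2618 at 1 week overlapped (fold change −0.99 ± 0.73, adjusted p = 0.358), since X72 replicate 3 was below all 1-week livers. All 6 livers were above the C0 range of 16.5 to 596 (median 61.7). One acute-phase gene of opposite course was Hamp2, a hepcidin gene, with 9.18, 8.84 and 8.76 at 72 h and 42.7, 18.1 and 47 at 1 week, a rise of 1.86 ± 0.55 that brought 2 of the 3 livers into the resting range of 25.9 to 105 (median 50.5). Orm1 was not called without X72 replicate 1 or X1W replicate 2 and with the libraries scaled (−0.59 to −0.76), Hamp2 without X1W replicate 3 (1.61), and Lcn2 without X72 replicate 1 (−2.11). Lcn2 and Orm1 lost their call with the 6 livers fitted alone (limma, adjusted p = 0.0664 to 0.186).

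The transcripts of the male liver rose toward the resting level. Of 18 male-biased growth hormone targets, 12 were higher at 1 week (4.12% of all genes were) and 0 lower, with a median log2 fold change of 1.43. At 72 h 15 of them were called below C0 (median −2.36), and at 1 week 8 still were and 1 was above (median −0.80; 0 above when scaled). The mean over the list was −2.38 ± 0.48 (log2, SD, n = 3) from rest at 72 h, −0.94 ± 0.52 (n = 3) at 1 week and 0.40 ± 0.03 (n = 2) at 4 weeks, where the unoperated C4W livers had 0.52 ± 0.02 (n = 2). Elovl3 (chr19:46206387-46210184, mm9), an elongase of very long fatty acids, had the largest rise among called genes above an RPKM of 1. Its RPKM values were 2.23, 27.5 and 4.21 at 72 h and 94.4, 231 and 78.6 at 1 week, a log2 fold change of 4.15 ± 0.51 (adjusted p = 2.36e-09), and every 1-week liver was below the C0 range of 264 to 546 (median 456). Hsd3b5 (chr3:98422559-98434232, mm9), a steroid reductase of male liver, had 0.561, 4.55 and 1.43 and then 19.1, 44.8 and 8.38, against 71.9 to 151 (median 113) in C0. Slco1a1 (chr6:141855803-141895483, mm9), a transporter of organic anions and bile acids, had 1.79, 17.4 and 11.8 and then 33.8, 45.9 and 28.9 (log2 fold change 2.24 ± 0.42). X1W replicate 2 was the highest of the 1-week livers in all 3 of these genes. Mup20, a pheromone-binding urinary protein, rose by 1.46 ± 0.39 on the log2 scale, and shares reads with its near-identical family members where the counting could not tell them apart. Cyp2d9 and Cyp7b1, enzymes of steroid hydroxylation, were not called, at 0.41 ± 0.24 and 1.16 ± 0.48. Mup20 was not called without X1W replicate 2 (1.07). Cyp7b1 was called without X72 replicate 2 (1.43). Of the male-biased genes 7 were higher without X1W replicate 2. Elovl3, Hsd3b5, Slco1a1 and Mup20 lost their call with the 6 livers fitted alone (limma, adjusted p = 0.0619 to 0.146). Of the male-biased genes 4 were higher in that fit.

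Female-biased targets went the other way in part. Of 16 detected genes, 5 were lower at 1 week (31.2%, against 12.2% of all genes) and 0 higher (median −0.66). A1bg, a plasma glycoprotein, had 0.987, 2.45 and 15.8 at 72 h, in which replicate 3 was far above the others, and 0.679, 0.0429 and 0.294 at 1 week (log2 fold change −2.84 ± 0.74). Sult2a1 and Sult2a2, which sulphate bile acids and steroids and are near-identical copies that may share reads, had 1.52, 0.341 and 0.327 and 3.35, 0.825 and 0.407 at 72 h and at most 0.0385 and 0.0659 at 1 week. Cyp17a1, a steroid hydroxylase, fell by 1.64, and Cyp2b9 overlapped between the groups (0.0626, 1.34 and 14.6, then 2.89, 0.687 and 1.67). In the growth hormone and IGF axis 5 of 22 genes were higher (22.7%, against 4.12% of all genes) and 0 lower. They were the receptor Ghr, with 17, 34.1 and 26.6 and then 41.1, 48.2 and 45.3, its transcription factor Stat5b, with 4.84, 8.23 and 6.92 and then 12.2, 12 and 14.1, the repressor Bcl6, with 0.707, 3.88 and 0.346 and then 11.9, 8.51 and 3.72, which overlapped, and the IGF-binding proteins Igfbp3 and Igfbp5. Igfbp3 had 0.775, 1.21 and 1.08 at 72 h and 6.64, 4.27 and 6.64 at 1 week, with a log2 fold change of 2.25 ± 0.27. Igf1 itself was not called, and its values of 37.2, 55.4 and 58.4 at 72 h and 63.9, 39.6 and 58.1 at 1 week overlapped. Cyp17a1 was not called without X72 replicate 1, X72 replicate 3, X1W replicate 2 or X1W replicate 3 and with the libraries scaled (−1.25 to −1.65), Igfbp5 without X72 replicate 1 or X1W replicate 1 (1.16 to 1.34), A1bg without X72 replicate 3 (−1.79), and Bcl6 without X72 replicate 3 (1.92). Of the female-biased genes 3 were lower without X72 replicate 1, X1W replicate 2 or X1W replicate 3 and with the libraries scaled and 2 lower without X72 replicate 3. A1bg, Sult2a1, Sult2a2, Cyp17a1, Ghr, Bcl6 and Igfbp5 lost their call with the 6 livers fitted alone (limma, adjusted p = 0.0602 to 0.137). Of the female-biased genes 1 was lower, and of the growth hormone axis 2 were higher in that fit.

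Among the drug- and steroid-metabolising enzymes the changes went both ways. Of 60 detected cytochrome P450 genes of families 1 to 4, 15 were higher at 1 week (25%, against 4.12% of all genes) and 3 lower (5%, against 12.2%). Cyp4a12a, a male-biased ω-hydroxylase of fatty acids, had 12.8, 21.3 and 7.16 at 72 h and 58.8, 112 and 71.9 at 1 week. Its near-identical copy Cyp4a12b, with which it may share reads, had 10.9, 12.5 and 6.52 and then 33.7, 58.1 and 41.5. Cyp2c54, an epoxygenase, had 21.9, 37 and 50.6 and then 113, 104 and 103, so that none of these 3 overlapped between the groups. Cyp2e1, which oxidises ethanol, had 688, 1013 and 821 and then 1484, 1925 and 1507, a rise of 0.97 ± 0.24. Cyp4f16 fell by 1.43. Of 47 conjugating enzymes 6 were higher (12.8%, against 4.12% of all genes) and 9 lower (19.1%, against 12.2%). Sult1e1, the oestrogen sulphotransferase, had 21, 1.36 and 0.765 at 72 h and 0.225, 0.0311 and 0 at 1 week, with a log2 fold change of −3.34 ± 0.67, which was −1.99 (adjusted p = 0.0311) without X72 replicate 1. Gsta1, a glutathione transferase, had 94.2, 54.5 and 86.5 and then 20.1, 5.47 and 23.1, and Nqo1, the quinone reductase that marks Nrf2 activity, fell by 1.20. In the Nrf2 list 2 of 19 were lower and 1 higher, the latter being Cat, catalase. Gsta1 was not called without X72 replicate 1 or X1W replicate 2 (−1.81 to −2.30). Of the P450 genes 9 were higher without X72 replicate 1, of the conjugating enzymes 3 were higher without X72 replicate 2, 10 higher with the libraries scaled and 5 lower without X72 replicate 1, and of the Nrf2 genes 4 were lower without X72 replicate 2. Sult1e1, Gsta1 and Nqo1 lost their call with the 6 livers fitted alone (limma, adjusted p = 0.0637 to 0.134). Of the conjugating enzymes 0 were lower in that fit.

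In bile acid synthesis and transport, 6 of 26 detected genes were higher at 1 week (23.1%, against 4.12% of all genes) and 0 lower. Baat, which joins bile acids to taurine, had 59.2, 75.9 and 69.3 at 72 h and 112, 131 and 119 at 1 week, and Hsd3b7, an early enzyme of the pathway, 29, 37.4 and 39.4 and then 64.4, 62.9 and 61.6. Abcg8, part of the canalicular sterol exporter, rose by 0.82 ± 0.28. Cyp7a1, the rate-limiting enzyme of bile acid synthesis, was not called, and its values of 6.64, 28.4 and 30.6 at 72 h and 35.1, 11.5 and 22.7 at 1 week overlapped. In fatty acid synthesis 2 of 20 were higher (10%, against 4.12% of all genes) and 1 lower (5%, against 12.2%). Scd1, the desaturase that makes oleate, had 1052, 575 and 927 at 72 h and 3909, 1495 and 4294 at 1 week, a rise of 1.83 ± 0.58 (adjusted p = 0.0154), and Fasn overlapped between the groups (−0.41 ± 0.44). X1W replicate 2 was the lowest 1-week liver for both. Scd1 was not called without X72 replicate 2, X1W replicate 1 or X1W replicate 3 (1.55 to 1.62), and Abcg8 without X72 replicate 3, X1W replicate 2 or X1W replicate 3 (0.67 to 0.81). Abcg8 and Scd1 lost their call with the 6 livers fitted alone (limma, adjusted p = 0.0568 to 0.0753).

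In fatty acid oxidation and ketogenesis 3 of 30 genes were higher (10%, against 4.12% of all genes) and 0 lower. Acaa1b, a thiolase of peroxisomes, had 46.2, 104 and 172 and then 244, 295 and 277 (log2 fold change 1.53 ± 0.30). None of 12 lipid droplet genes was called. Of 23 genes of glucose production and glycolysis 1 was higher (4.35%, against 4.12% of all genes) and 2 were lower (8.7%, against 12.2%). G6pc, the phosphatase that releases glucose, had 12.8, 99.2 and 62.2 at 72 h, where replicate 1 was far below the other 2, and 113, 134 and 118 at 1 week. Ldha, lactate dehydrogenase A, fell by 0.77. In the urea cycle and amino acid breakdown 4 of 33 genes were higher and 4 lower. Each was 12.1%, against 4.12% higher and 12.2% lower of all genes. Otc, a urea cycle enzyme, had 53.8, 75 and 75.7 and then 113, 112 and 116, whereas Cps1, which feeds the cycle, had 1375, 1121 and 1329.6 and then 878, 652 and 881 (log2 fold changes 0.75 and −0.67). Tdo2, which opens the breakdown of tryptophan, had 109.9, 172 and 126 and then 229.8, 305 and 242. Cps1 was not called without X72 replicate 1, X72 replicate 3 or X1W replicate 2 and with the libraries scaled (−0.51 to −0.64), and G6pc without X72 replicate 1, X1W replicate 1, X1W replicate 2 or X1W replicate 3 (0.62 to 1.54). Of the oxidation genes 5 were higher with the libraries scaled, of the glucose genes 4 were lower without X72 replicate 2, and of the urea and amino acid genes 8 were higher with the libraries scaled, 2 lower without X72 replicate 1, X72 replicate 3 or X1W replicate 2 and 1 lower with the libraries scaled. Acaa1b, G6pc and Cps1 lost their call with the 6 livers fitted alone (limma, adjusted p = 0.0674 to 0.257). Of the oxidation genes 0 were higher, and of the urea and amino acid genes 2 were lower in that fit.

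Of 38 plasma, complement and coagulation genes 7 were higher (18.4%, against 4.12% of all genes) and 3 lower (7.89%, against 12.2%). C8b, of the membrane attack complex, had 51.6, 93.6 and 70.8 and then 130.3, 163 and 121, and C3, the central complement protein, 3455, 4103 and 3418 and then 2114, 1689.7 and 2368. Of 21 apolipoproteins and lipoprotein genes 5 were higher (23.8%) and 4 lower (19%). Apoa4, an apolipoprotein that rises with hepatic lipid, had 841, 764 and 723 at 72 h and 171, 229 and 142 at 1 week, and its fall of −2.13 ± 0.49 left it 1.19 log2 units above C0. Lipc, hepatic lipase, rose by 1.01 ± 0.19. Of 19 pericentral and 15 periportal genes, 3 and 2 were higher and 1 and 3 lower. Glul, glutamine synthetase of the cells around the central vein, was not called (164, 126 and 177, then 208, 198 and 208), and Cyp2f2, of periportal cells, rose by 1.06 ± 0.23. Of the plasma proteins 2 were higher without X72 replicate 1 and 3 higher without X1W replicate 2, of the pericentral genes 5 were higher with the libraries scaled, and of the periportal genes 4 were higher with the libraries scaled. C8b, C3 and Lipc lost their call with the 6 livers fitted alone (limma, adjusted p = 0.0657 to 0.0683). Of the plasma proteins 1 was higher, and of the apolipoproteins 0 were higher in that fit.

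Among 23 hepatocyte transcription factors 1 was higher and 1 lower. Each was 4.35%, against 4.12% higher and 12.2% lower of all genes. Cebpa, which restrains hepatocyte division, had 29.9, 46.1 and 55.8 at 72 h and 85, 81 and 67 at 1 week (log2 fold change 0.86 ± 0.21, adjusted p = 0.00142), and Gata6 fell by 0.67. Hnf4a was not called (−0.48 ± 0.20). Of 17 detected fetal and progenitor markers 5 were lower (29.4%, against 12.2% of all genes) and 1 higher (5.88%, against 4.12%). Ly6d, a lymphoid surface antigen, had 40.9, 37.3 and 38.9 at 72 h and 8.65, 1.81 and 14.3 at 1 week, with a log2 fold change of −2.61 ± 0.59, and all 3 X1W livers were above the C0 range of 0.0939 to 0.81 (median 0.492). Afp, α-fetoprotein, had 4.13, 1.4 and 1.83 and then 0.542, 0.468 and 0.584. Prom1, a progenitor antigen, and Spink3, a protease inhibitor, fell by 1.94 and 1.68. Gata6 was not called without X72 replicate 1 or X1W replicate 2 and with the libraries scaled (−0.52 to −0.62), Cebpa without X72 replicate 1 (0.60), and Spink3 without X72 replicate 1 (−1.13). Of the fetal markers 3 were lower without X72 replicate 1. Cebpa, Ly6d, Afp, Prom1 and Spink3 lost their call with the 6 livers fitted alone (limma, adjusted p = 0.0556 to 0.108). Of the fetal markers 0 were lower in that fit.

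Growth factor pathways showed few calls. Hgf, the hepatocyte growth factor made by stellate and endothelial cells, had 2.73, 2.73 and 2.32 at 72 h and 1.08, 1.06 and 1.82 at 1 week, a log2 fold change of −0.89 ± 0.28 (adjusted p = 0.0167), while its receptor gene Met was not called (0.23 ± 0.23). Erbb3, a receptor of the EGF family, rose by 0.96 ± 0.27, with overlap between the groups. These were the 1 fall and 1 rise among 11 genes of the HGF and EGF receptor list. Of 28 genes of TGF-β, activins and follistatin 1 was called, Bmp2, with 0.979, 1.14 and 0.89 and then 1.98, 2.23 and 1.93. Inhba, the activin A subunit, had 2.9, 4.17 and 8.28 and then 2.14, 2.13 and 3.71, with overlap, and was not called, and all 6 livers were above the C0 range of 0.627 to 1.64 (median 0.848). None of 16 Hippo pathway genes was called, where 4.12% and 12.2% of all genes were called higher and lower. Of 16 immediate-early genes 4 were lower (25%, against 12.2% of all genes) and 1 higher (6.25%, against 4.12%). The latter was Dusp1, a phosphatase of MAP kinases, with 1.71, 1.72 and 1.63 and then 4.89, 5.82 and 3.74. Fos, Jun, Egr1 and Myc were not called. Of 18 clock genes, Per1 fell by 2.45 (3.55, 1.37 and 2.16, then 0.182, 0.361 and 0.0952) and Cry2 rose by 0.71 ± 0.19, and Arntl and Nr1d1 were not called (0.19 ± 0.23 and 0.95 ± 0.63). Clock transcripts depend on the hour of collection, and on feeding, so for them these and the time after PH cannot be told apart. Hgf was not called without X72 replicate 1, X1W replicate 1 or X1W replicate 2 (−0.77 to −0.85), and Erbb3 without X72 replicate 1 or X72 replicate 3 (0.68 to 0.76). Inhba was called without X72 replicate 1 (−1.12). Of the immediate-early genes 0 were lower without X72 replicate 1 and 1 lower without X1W replicate 2. Hgf and Erbb3 lost their call with the 6 livers fitted alone (limma, adjusted p = 0.0593 to 0.193). Of the immediate-early genes 0 were lower in that fit.

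Markers of other cells of the liver were followed in the same livers. All 10 endothelial markers had higher values in each X1W liver than in each X72 liver (as had 10.1% of all tested genes), and 4 were called higher, with a median log2 fold change of 0.61. Their summed RPKM was 21.7 to 23.2 at 72 h, 33 to 42.3 at 1 week and 17.4 to 48.2 in C0. Oit3, a marker of sinusoidal endothelium, had 1.78, 2.42 and 2.2 and then 5.68, 4.3 and 5.92, and Kdr, the VEGF receptor, 1.88, 1.95 and 2.04 and then 3.63, 3.15 and 4.13. Of 11 Kupffer cell and macrophage markers none was called, and the summed RPKM of 54.8 to 111 and 62.6 to 134 overlapped. Of 10 neutrophil and monocyte markers 1 was called, Retnlg, with 3.6, 0.937 and 0.248 at 72 h and 0.0582, 0.129 and 0.16 at 1 week. X72 replicate 1 had the highest summed level of that list, 69.7, against 16.3 in the lowest X72 liver, and it was also the liver with the highest Lcn2, Saa1 and Mt2. What part this had in the acute-phase result was not tested. Of 4 detected erythroid markers (of 8 listed) 2 were higher. Alas2, the first enzyme of haem synthesis in red cells, had 5.84, 20.7 and 14.2 and then 41.8, 45.5 and 41.3. The summed level was 23.7 to 51.6 at 72 h and 86.2 to 94.5 at 1 week. Among 7 detected T and NK cell markers 1 was called, Trbc2, a constant part of the T cell receptor, at a summed level of 0.601 to 0.738 and 0.655 to 2.03. The 9 stellate cell and 6 cholangiocyte markers had no call. The summed level of the B and plasma cell markers was 0.72 to 0.785 at 72 h and 0.796 to 2.03 at 1 week. No marker of B and plasma cells, dendritic cells, mesothelium, skeletal muscle or pancreas was called. The 8 hepatocyte markers had 1 rise and 1 fall and a median of 0.02. Kdr was not called without X72 replicate 1, X72 replicate 2, X72 replicate 3, X1W replicate 1 or X1W replicate 3 (0.72 to 0.84), Trbc2 without X72 replicate 1, X72 replicate 2, X1W replicate 1 or X1W replicate 3 (0.69 to 0.88), Lcn2 without X72 replicate 1 (−2.11), and Retnlg without X72 replicate 1 (−1.08). Of the endothelial markers 1 was higher without X72 replicate 1 or X1W replicate 3, 2 higher without X72 replicate 2, X72 replicate 3 or X1W replicate 1 and 7 higher with the libraries scaled, and of the neutrophil markers 4 were lower without X72 replicate 3. Retnlg, Alas2 and Trbc2 lost their call with the 6 livers fitted alone (limma, adjusted p = 0.0679 to 0.167).

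**Figure D5:**
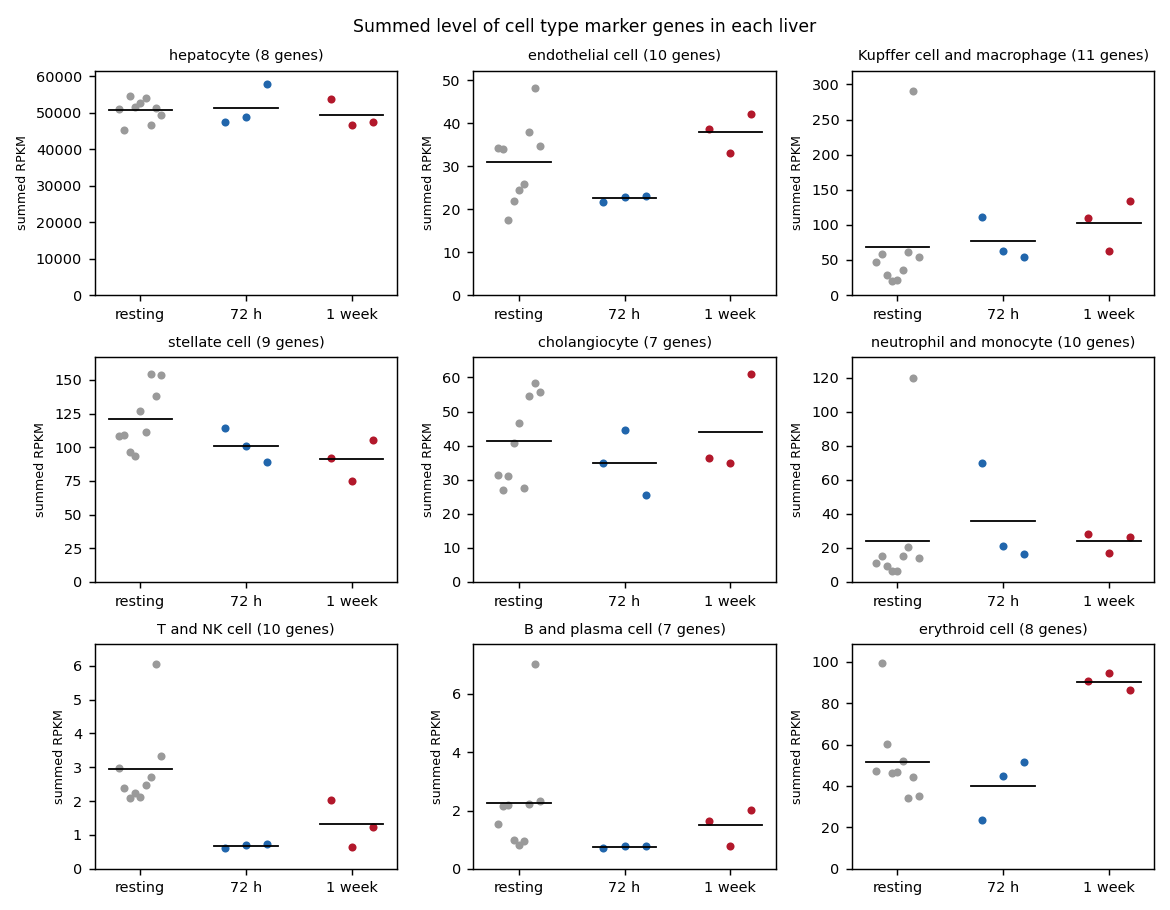
Summed RPKM of the marker genes of 9 cell types in each liver, for resting livers (9, grey), 72 h (3, blue) and 1 week (3, red) after PH. Points are livers, lines are group means and the y axes start at 0. Endothelial and erythroid markers lie higher at 1 week without overlap, B and plasma cell markers do so by a small gap (0.785 against 0.796), and the markers of the 6 other cell types overlap.

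In the extracellular matrix list 3 of 31 detected genes were higher and 3 lower. Each was 9.68%, against 4.12% higher and 12.2% lower of all genes. Eln, elastin, had 0.515, 0.835 and 0.875 at 72 h and 3.07, 1.47 and 2.39 at 1 week (log2 fold change 1.34 ± 0.29), and Lum, lumican, had 13.1, 8.39 and 6.2 and then 3.77, 3.12 and 5.68. Col1a1 and Col3a1, the fibrillar collagens, were not called (−1.07 ± 0.54 and −0.28 ± 0.46). Against C0, 20 of the 31 were called higher at 72 h and 16 at 1 week (12 to 15 with 3 C0 livers at a time). Of all tested genes 26.6% and 12.4% were. With the libraries scaled, 14 and 12 matrix genes were higher, where 11.4% and 5.61% of all genes were. Lum was not called without X72 replicate 1 or X1W replicate 2 (−0.79 to −0.89). Eln and Lum lost their call with the 6 livers fitted alone (limma, adjusted p = 0.0523 to 0.102). Of the matrix genes 0 were higher, and of the matrix genes 1 was lower in that fit.

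Of the 12 largest falls and 12 largest rises over all genes, those not yet described belong to several kinds. Akr1b7 (chr6:34362334-34373142, mm9), an aldose reductase-like enzyme, had RPKM values of 42.1, 7.34 and 12.6 at 72 h and 0.607, 0.305 and 1.75 at 1 week, a log2 fold change of −4.03 ± 0.57. D17H6S56E-5 (chr17:35133681-35138609, mm9), a gene of the major histocompatibility region, had 91.7, 111 and 72.9 and then 8.31, 4.18 and 10.4, and its 1-week values were all above the C0 range of 0.338 to 2.8 (median 0.89). Cdkn3, a phosphatase of cyclin-dependent kinases, fell by 2.86. The small nucleolar RNA snoZ40 (chr9:15119966-15120039, mm9) was listed at 0 in all 3 X1W livers and had 2.64, 1.1 and 1.63 at 72 h, but poly(A)-selected libraries hold little of such RNAs. It is also so short that a few reads give an RPKM above 1. On the rising side, Car3 (chr3:14863538-14872351, mm9), a carbonic anhydrase of hepatocytes, had 29.4, 277 and 228 and then 777, 846 and 639, below the C0 range of 1439 to 2623 (median 1738). 2810007J24Rik and Gm4956 rose by 3.64 ± 0.41 and 2.66 ± 0.36. Ptgds, a prostaglandin D synthase, had 0.736, 1.33 and 3.78 and then 13.1, 7.86 and 19.4, where C0 had 1.16 to 5.4 (median 2.23), so the 1-week livers lay above every resting one. Gbp10, an interferon-induced GTPase, had 0.673, 1.33 and 1.36 and then 9.28, 5.85 and 6.67. Gm13775 and the pseudogenes Mup-ps7, Mup-ps8 and Mup-ps13 lie among the major urinary protein genes of chromosome 4 and may share reads with them. They were called higher by 2.41 to 3.21 on the log2 scale. Car3 was not called without X72 replicate 1 (1.57), and snoZ40 without X72 replicate 1 (−2.67). Car3, Ptgds and Mup-ps8 lost their call with the 6 livers fitted alone (limma, adjusted p = 0.0512 to 0.122).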

How the data were processed

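The authors sequenced poly(A) RNA of mouse livers as stranded single-end libraries with no spike-in. Per the study's methods and the submitters' processing notes, they trimmed reads with Cutadapt and prinseq-lite, mapped them to mm9 with TopHat2 2.0.13 and Bowtie2, handled alignments with SAMtools 0.1.19 and counted Ensembl genes on the transcribed strand with featureCounts, where a read with several positions was shared among them. The authors deposited log2 RPKM values, 1 column per liver, so total RNA per cell cannot be followed and near-identical genes may share reads. Of 84 columns, 80 matched 1 label each and 4 per-sample columns were not used. For 7 labelled samples no column was used here.

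RPKM was taken back to the linear scale (values at the floor as 0), and limma 3.58.1 in R 4.3.3 (lmFit, eBayes with trend) was run on log2(RPKM + 0.25) over all 19 groups, for the 15396 genes above a log2 RPKM of −1.5 in at least 1 library, of 37991. The groups include sham-operated livers and unoperated livers of later times, which also enter the SE. The study's fold threshold of 0.5 and detection limit were kept, and Benjamini-Hochberg adjustment was over all tested genes. The code was tested on simulated data. Whole reads were recovered for only 73.1% to 76.1% of the low values of the 6 livers (up to 10 reads, within 0.05 of a whole number), so no count test was run. Depth, estimated from the same low values, was 12.2 to 49.0 M reads over all libraries. Scaled libraries had each the same median over detected genes.

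Replicate numbers are shared by X72 and X1W. Same-numbered livers had correlations of their deviations of 0.137, 0.159 and 0.038 over genes, not all above 0.1, and come from different mice, so the fit has no block.

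Genes named in the text are the 12 largest called rises and falls with a mean log2 RPKM above 0 in the higher group and no overlap, key members of each list, and up to 4 called members with the largest change in each list. Some genes that this rule names, and 1 list, are not reported here. The members and lists were chosen with earlier results of these data known. Promoters were taken from RefSeq (GRCm38.p6) by symbol, which matched 9206 of the 15396 detected genes. Alternatives were other pseudocounts, filters, scaling, prior variance, a fit of the 6 livers alone, the replicate block, each liver left out in turn and, for C0, 3 of its livers at a time. Figures were drawn with matplotlib 3.10.9.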

Additional observations from a re-analysis of the deposited data

Results flagged for a closer look

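In the 9 resting livers, 19 genes whose resting range is printed were tested for a liver far from the others (Dixon's criterion at 95%, on log2(RPKM + 0.25)), of which chance alone flags about 1 in 20. Cdk1 had an RPKM of 0.941 in C0 replicate 2, against 0.176 to 0.429 in the other resting livers. D17H6S56E-5 had 2.8 in the same liver, against 0.338 to 1.07 in the others. Both genes therefore have a resting range whose upper end is set by 1 liver, and the 1-week livers lay above it in either case.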

How the results depend on the processing

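Of 2507 genes called between 1 week and 72 h (1873 lower, 634 higher), the total kept within 1.5 times under other pseudocounts, filters and the constant prior, where it ran from 1777 to 2597. Scaled libraries gave 1010 lower and 1048 higher. A fit of the 6 livers alone gave 1313 genes (1060 lower, 253 higher), with 5111 at an unadjusted p under 0.05 and fewer residual degrees of freedom, and 51 of 156 named genes lost their call in it while their fold changes stayed as they were. With each liver left out in turn the total was 1677 to 2777, with 1356 to 2105 lower and 321 to 686 higher, the lowest of each without X72 replicate 1.

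With the replicate block in the fit of the 6 livers alone, limma called 0 genes, 0 higher and 0 lower, with 5121 at an unadjusted p under 0.05 and a smallest adjusted p of 0.0658. This fit has fewer residual degrees of freedom than any other. Each liver correlated best with the liver of its own number in the other group, a hint from the data and not the design.

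For 72 h against C0 (4096 higher, 1015 lower) a pseudocount of 1 gave 643 lower, scaling 1760 higher and 2553 lower, and C0 replicates 7 to 9 alone 1605 lower. Leaving out each X72 or X1W liver gave 4787 to 5271 in all, 3731 to 4238 higher and 770 to 1056 lower. For 1 week against C0 (1914 higher, 690 lower) a pseudocount of 1 gave 1491 in all and 1002 higher, scaling 863 higher and 1537 lower, and C0 replicates 7 to 9 alone 4690 in all, 3395 higher and 1295 lower. Leaving out each liver gave 1679 to 2854 in all, 1190 to 2202 higher and 489 to 686 lower, with 1679 and 1190 without X1W replicate 3. The C0 livers come from 3 periods that the labels do not tell apart, and the cause of the other shifts was not tested. No gene named in the text was called in the opposite direction under any of these settings. Libraries of 20.5 to 33.0 M reads limit statements on genes below an RPKM of about 1, and on very short genes also above it.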

Other observations

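A further group was picked after the values had been seen, because Gbp10 was among the largest rises. It holds 35 interferon-induced genes, which respond to type I or type II interferon, and its counts are a description that cannot support the choice. Of 34 detected members 23 were higher at 1 week and 0 lower, with a median log2 fold change of 0.87 (20 higher without X72 replicate 1, 24 when scaled). Ifit3, which binds foreign RNA complexes, had RPKM values of 2.02, 2.21 and 1.83 at 72 h and 9.35, 7.28 and 10.4 at 1 week, against 3.94 to 9.08 (median 5.56) in C0. Irf7, the transcription factor of the interferon response, had 2.37, 3.54 and 3.07 and then 10.8, 9.19 and 13, and Rsad2, the antiviral protein viperin, 0.588, 0.667 and 1.01 and then 3.54, 3.38 and 5.47. The 3 livers of each group did not overlap in these genes. The mean over the list was −0.38 ± 0.11 (log2, SD, n = 3) from the resting mean at 72 h, 0.60 ± 0.26 (n = 3) at 1 week and 0.32 ± 0.04 (n = 2) at 4 weeks, where the unoperated C4W livers had 0.06 ± 0.03 (n = 2). Against C0, 10 members were called lower at 72 h (18 when scaled) and 16 higher at 1 week (7 when scaled, 12 to 15 with 3 C0 livers at a time). Markers of other cells went both ways between 72 h and 1 week. The median log2 fold change was −0.18 for stellate cell markers and −0.43 for neutrophil and monocyte markers, and above 0 for the lists that follow. None of 11 Kupffer cell and macrophage markers was called and their summed RPKM overlapped, but 10 of the 11 had a log2 fold change above 0 (median 0.48, 0.64 when scaled), and all 10 endothelial markers were higher in each X1W liver (median 0.61). What part these cells had in the interferon group was not tested.

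Of 16 detected carboxylesterases, also picked after the values had been seen, 3 were higher and 1 lower. Ces3b and Ces3a hydrolyse lipid esters in the endoplasmic reticulum. Ces3b had RPKM values of 25.7, 56.2 and 50.04 at 72 h and 156, 197 and 179 at 1 week, and Ces3a had 93.5, 365 and 295 and then 711, 936 and 629. Ces1b fell by 1.01 on the log2 scale. Of 9 detected carbonic anhydrases 2 were higher, Car3 and Car1, and 1 lower, Car2. Car1 had 0.149, 0.345 and 0.332 and then 2.17, 2.68 and 2.08, and Car2 had 7.02, 6.46 and 7.36 and then 3.99, 3.25 and 4.95. Car1 is also abundant in red cells, of whose 4 detected markers 2 rose between the same groups, and what part these had in its rise was not tested. Car2 was not called without X1W replicate 2 (−0.61), and Car3 without X72 replicate 1 (1.57). Of the carboxylesterases 5 were higher without X72 replicate 3 and with the libraries scaled, and of the carbonic anhydrases 4 were higher with the libraries scaled. Ces3a lost its call with the 6 livers fitted alone (limma, adjusted p = 0.096).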
